A study of Mus musculus with 4 samples.

Results

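The Hox clusters are 4 chromosomal arrays of homeobox genes, Hoxa, Hoxb, Hoxc and Hoxd, which give cells of the embryo their position along the head-to-tail axis. Genes that occupy the same place in different clusters are paralogues and share a number, from 1 at the 3′ end to 13 at the 5′ end. Low numbers are switched on early and reach far forward, into the hindbrain and the pharyngeal region, while high numbers are used in the trunk and tail. Tissue in front of the hindbrain normally lacks Hox transcripts, and Hox proteins bind DNA together with partner homeodomain proteins of the Pbx and Meis families.

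Members were all probe sets whose only gene symbol in the platform annotation was a Hoxa, Hoxb, Hoxc or Hoxd gene, without antisense transcripts and without a filter on intensity. This gave 48 probe sets of 45037 on the array that are not controls, and they covered 33 Hox genes. There were 16 probe sets for Hoxa (chromosome 6), 11 for Hoxb (chromosome 11), 11 for Hoxc (chromosome 15) and 10 for Hoxd (chromosome 2). Hox genes without a probe set under this rule were not analysed here.

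Samples came from ARC/s mouse embryos of embryonic day 8.5 with 4 to 5 somites, and a source label gives a somewhat wider range of somites. There were 2 samples of foregut endoderm, taken at the anterior intestinal portal, and 2 that joined mesoderm of the heart with mesoderm and ectoderm of the head, called mes/ectoderm as in the labels, all with 15 to 20 pooled pieces of tissue. In each of 2 experiments there was 1 sample of either tissue. Samples numbered 1 were dissected mechanically and samples numbered 2 after digestion with trypsin and pancreatin, per the labels' protocols, so the effect of the experiment and that of the dissection cannot be told apart. A description field names the sample foregut endoderm 2 as ectoderm, and this sample was grouped by its title, source and tissue labels. No transgene or mutation is named in the labels.

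The deposited intensities were read on a log2 scale. The lowest log2 value of an array, called its floor, lay between 2.25 and 2.28, and a probe set within 0.1 log2 units of it was counted as at the floor. Of 10 foregut endoderm markers, endoderm exceeded mes/ectoderm by 2-fold or more in both experiments for 8, with summed intensities of 6080 and 15233 in endoderm 1 and 2 against 502 and 1265 in mes/ectoderm 1 and 2. Heart muscle markers did not follow the labels. None of 10 was above log2 5 in mes/ectoderm 1, where their summed intensity was 94.4, against 9 in foregut endoderm 1 (14425), 3 in foregut endoderm 2 (1084) and 10 in mes/ectoderm 2 (93039).

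Hox probe sets were nearly silent on all 4 arrays. Above log2 5 lay 2 of 48 on foregut endoderm 1, 1 on mes/ectoderm 1, 2 on foregut endoderm 2 and 1 on mes/ectoderm 2. The same level was passed by 28.9%, 27.8%, 28.6% and 27.7% of all probe sets on these arrays. At least 1 array was above log2 5 for 3 Hox probe sets, or 6.25% of them, against 32.5% of all probe sets, and all 4 arrays for 1, against 24.2%. These 3 were Hoxa5 (1443803_x_at), Hoxb1 (1453501_at) and Hoxb3 (1456229_at). At the floor on all 4 arrays lay 30 of 48, or 62.5%, against 38.3% of all probe sets. A probe set at the floor gives no measure of its transcript, and its gene may still be transcribed below what these arrays register.

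**Figure D1:**
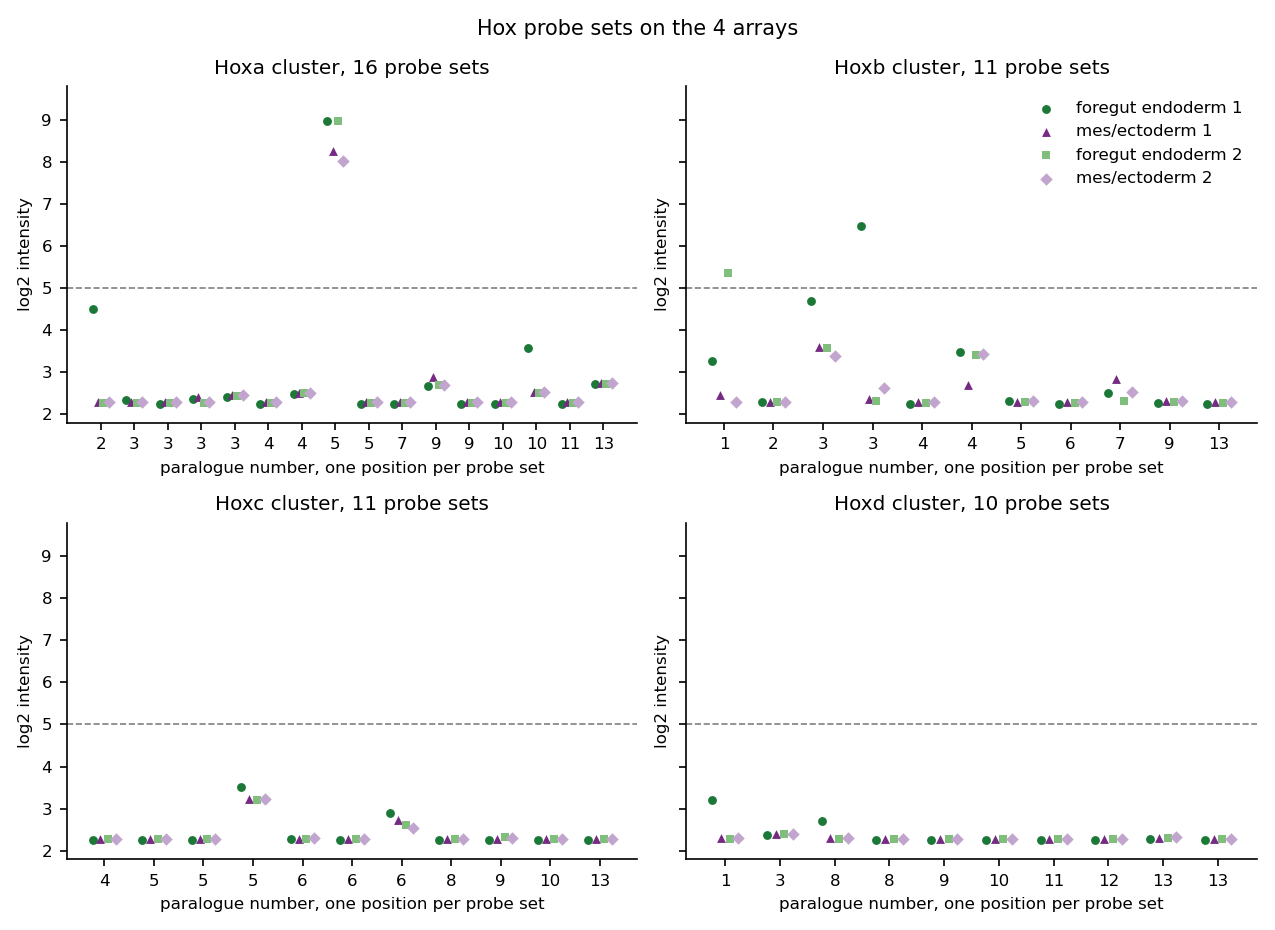
Log2 intensity (vertical axis) of each of the 48 Hox probe sets, by cluster (panels) and paralogue number (horizontal axis), with 1 symbol per array and a dashed line at log2 5. Only 3 probe sets cross the line, and for Hoxb1 and Hoxb3 a single endoderm array does so, whereas Hoxa5 crosses it on all 4 arrays.

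Hox probe sets at the floor were more frequent towards the 5′ end of the clusters, although the brightest signal was that of Hoxa5. Among paralogues 1 to 4, 6 of 16 probe sets were at the floor on all arrays, close to the 38.3% of all probe sets. The count was 10 of 15 for paralogues 5 to 8 and 14 of 17 for paralogues 9 to 13. On foregut endoderm 1, 10 of the 16 probe sets of paralogues 1 to 4 left the floor, against 7, 6 and 6 on mes/ectoderm 1, foregut endoderm 2 and mes/ectoderm 2. For paralogues 9 to 13 the count was 3 of 17 on every array. Of all probe sets, 41.4%, 42.6%, 43.5% and 44.8% were at the floor, in the order of arrays just given. Some Hox probe sets off the floor stood at the same height above it on every array, as did Hoxa3 (1452421_at) and Hoxa4 (1427354_at). Median log2 intensities of paralogues 1 to 4 were 2.39 and 2.28 on endoderm 1 and 2 and 2.33 and 2.29 on mes/ectoderm 1 and 2, all close to the floor. Those of paralogues 9 to 13 were 2.25, 2.27, 2.28 and 2.28 in the same order. Probes differ in how brightly they bind, so an order among probe sets is not an order of transcript abundance, and no test was made between paralogues.

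By cluster, probe sets more than 1 log2 unit above the floor of foregut endoderm 1 numbered 3 of 16 in Hoxa, 4 of 11 in Hoxb, 1 of 11 in Hoxc and 0 of 10 in Hoxd. On foregut endoderm 2 these counts were 1, 3, 0 and 0. The share of all probe sets at this height was not counted. Above log2 5, a stricter level, lay 28.9% of all probe sets on foregut endoderm 1 and 28.6% on foregut endoderm 2. No test was made between clusters. The highest value in Hoxc was 3.52, for a probe set of Hoxc5, and in Hoxd it was 3.21, for Hoxd1.

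Hoxb1, which marks a single segment of the hindbrain and is also active in early foregut endoderm and its neighbouring mesoderm, was highest in endoderm, at a modest level. Its log2 intensity was 3.25 and 5.36 in foregut endoderm 1 and 2, against 2.46 in mes/ectoderm 1 and 2.28 in mes/ectoderm 2. The groups did not overlap. Neither did the array floors, at 2.25 and 2.27 in endoderm and 2.28 on each mes/ectoderm array. The share of all probe sets without overlap was not counted. Within experiments the tissue difference was 0.79 (first) and 3.08 (second). The latter is at least 8.46-fold, since mes/ectoderm 2 was at the floor. The endoderm arrays themselves differed by 2.11 log2 units. The mean tissue difference of 1.94, a lower bound, was 0.88 without foregut endoderm 2, 2.99 without foregut endoderm 1 and 0.85 on the scale of log2(value + 16).

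Hoxd1, the paralogue of Hoxb1 in the Hoxd cluster, rose above the floor on a single array. It had 3.21 in foregut endoderm 1, 2.28 in foregut endoderm 2 and 2.30 in both samples of mes/ectoderm.

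Hoxa2, the selector gene of the second pharyngeal arch and the most anterior Hox gene of the hindbrain, reached a log2 intensity of 4.51 in foregut endoderm 1. It was at the floor on the other arrays, with 2.28 in mes/ectoderm 1, 2.27 in foregut endoderm 2 and 2.29 in mes/ectoderm 2. Foregut endoderm 1 was thus at least 4.66-fold above the next array. Hoxb2, its paralogue in the Hoxb cluster, was at the floor on all 4 arrays.

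Hoxb3, a gene of the posterior hindbrain and of the caudal pharyngeal arches, had the same array as its highest with both of its probe sets. Probe set 1456229_at was at 6.47 in foregut endoderm 1, 2.36 in mes/ectoderm 1, 2.30 in foregut endoderm 2 and 2.62 in mes/ectoderm 2. Foregut endoderm 1 lay 14.4-fold above the next array, and the 2 endoderm arrays stood at the top and the bottom of the range. Probe set 1427605_at was at 4.70 in foregut endoderm 1 and between 3.38 and 3.60 on the other arrays, a 2.14-fold lead. With 1456229_at endoderm was higher by at least 4.10 log2 units in the first experiment, where mes/ectoderm 1 was at the floor. In the second experiment foregut endoderm 2 was at the floor and mes/ectoderm 2 was only 0.34 log2 units above it. The mean tissue difference of this probe set was 1.89, and it was 3.98 without foregut endoderm 2 and -0.19 without foregut endoderm 1. Of the other paralogues of number 3, the 4 probe sets of Hoxa3 and that of Hoxd3 lay at or below 2.45 on every array.

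Hoxb4 was off the floor on every array with 1 of its 2 probe sets (1460379_at). This lay at 3.48 in foregut endoderm 1, 3.40 in foregut endoderm 2, 2.69 in mes/ectoderm 1 and 3.42 in mes/ectoderm 2. Its height above the floor was the same, 1.14, in foregut endoderm 2 and mes/ectoderm 2, and whether it reflects transcript was not tested. Mesoderm and ectoderm 1 was the low array here, and the others lay within 0.1 log2 units of each other. Hoxb4's other probe set was at the floor on every array, as were Hoxc4 and 1 of the 2 probe sets of Hoxa4.

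Hoxa5, a regulator of lung and foregut organ development, had the only Hox probe set above log2 5 on every array. Probe set 1443803_x_at had a log2 intensity of 8.96 on both endoderm arrays, and of 8.24 and 8.01 in mes/ectoderm 1 and 2. Endoderm was higher by 0.72 log2 units within the first experiment and by 0.95 within the second. Hoxa5's other probe set, 1448926_at, stayed at the floor on all 4 arrays, so the probe sets of this gene disagree. The suffix _x_at marks probe sets in which some probes may also match other transcripts, and whether the bright signal came from Hoxa5 was not tested.

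Among the more posterior genes, 2 probe sets moved by more than 0.5 log2 units between arrays, measured as height above each array's floor. A Hoxa10 probe set (1446408_at) was at 3.57 in foregut endoderm 1 and between 2.50 and 2.52 on the others, while the other Hoxa10 probe set was at the floor throughout. Hoxb7 was at 2.82 in mes/ectoderm 1, 2.53 in mes/ectoderm 2, 2.49 in foregut endoderm 1 and 2.31 in foregut endoderm 2. Hoxb7 was the member of this kind that lay lower in endoderm in both experiments, by 0.33 and 0.22 log2 units.

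**Figure D2:**
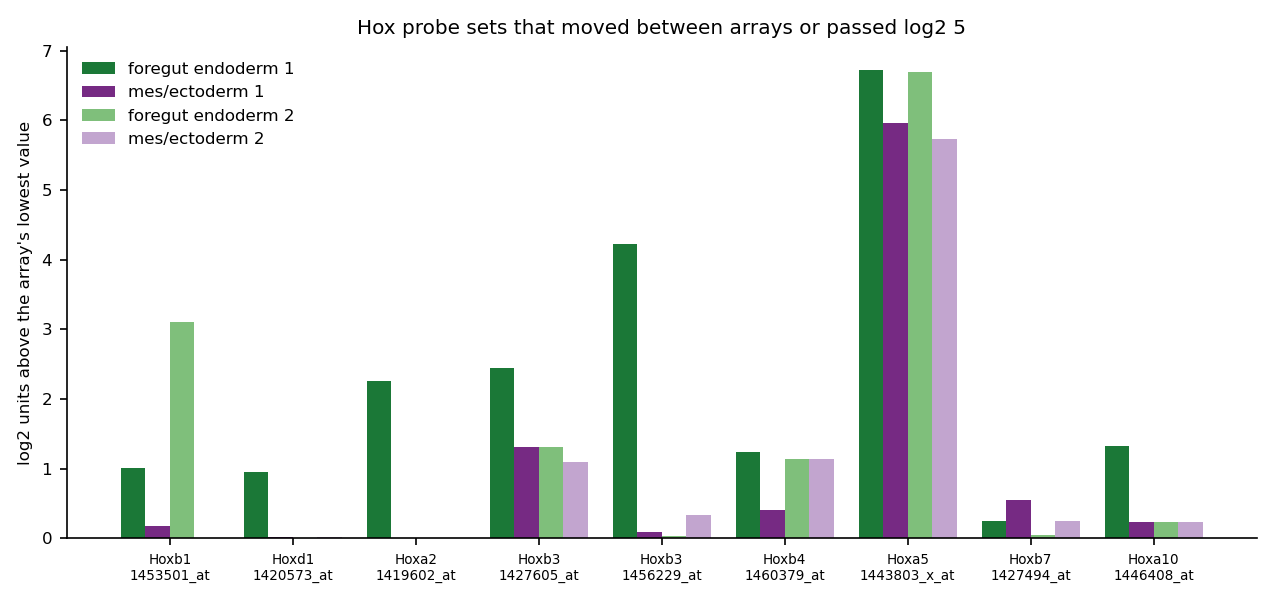
Height above the lowest value of the same array, in log2 units (vertical axis), for the 9 Hox probe sets whose height differed by more than 0.5 between arrays, with 1 bar per array. Foregut endoderm 1 is the tallest bar for Hoxd1, Hoxa2, both Hoxb3 probe sets and Hoxa10, foregut endoderm 2 for Hoxb1, and Hoxa5 is tall on every array.

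The remaining 39 probe sets lay between 2.25 and 3.52, and none moved by more than 0.44 log2 units in height above the floor. Of all 48, 34 stayed within 0.1 log2 units of height across the arrays (70.8%, against 47.4% of all probe sets), and 9 moved by more than 0.5 (18.8%, against 38.5%). In addition to Hoxb2, the genes with every probe set at the floor on all arrays were Hoxc4, Hoxb5, Hoxb6, Hoxa7, Hoxc8, Hoxb9, Hoxc9, Hoxd9, Hoxc10, Hoxd10, Hoxa11, Hoxd11, Hoxd12, Hoxb13, Hoxc13 and Hoxd13. These include the genes of the limb, tail and urogenital region at the 5′ end of the clusters. A flat level off the floor occurred too, as for Hoxa13 (2.71 to 2.74) and Hoxa4 (2.47 to 2.51).

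The promoters of 4 members are shown because they stand for the patterns above. Hoxb1 was above log2 5 on foregut endoderm 2 only and Hoxa2 left the floor on foregut endoderm 1 only, Hoxa5 was bright on all arrays by 1 probe set, and Hoxd13 was at the floor throughout. Each sequence covers the 250 bases before the gene's start in RefSeq, build GRCm38.p6, 5′ to 3′ on the strand of the gene. Capitals mark TGATNNAT, a core of the sites bound by Pbx and Hox proteins together, searched on both strands without regard to other motifs.
Hoxb1, chr11:96365508-96365757, + strand: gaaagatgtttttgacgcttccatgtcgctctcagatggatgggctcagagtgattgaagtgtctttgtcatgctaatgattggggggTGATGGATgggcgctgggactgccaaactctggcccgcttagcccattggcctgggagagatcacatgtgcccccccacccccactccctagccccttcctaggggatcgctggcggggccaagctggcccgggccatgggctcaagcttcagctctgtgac
Hoxa2, chr6:52164832-52165081, - strand: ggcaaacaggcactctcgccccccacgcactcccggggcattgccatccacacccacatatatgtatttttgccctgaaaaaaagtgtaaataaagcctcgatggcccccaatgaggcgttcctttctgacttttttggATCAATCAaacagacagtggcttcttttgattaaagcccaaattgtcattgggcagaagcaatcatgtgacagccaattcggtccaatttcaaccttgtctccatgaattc
Hoxa5, chr6:52204588-52204837, - strand: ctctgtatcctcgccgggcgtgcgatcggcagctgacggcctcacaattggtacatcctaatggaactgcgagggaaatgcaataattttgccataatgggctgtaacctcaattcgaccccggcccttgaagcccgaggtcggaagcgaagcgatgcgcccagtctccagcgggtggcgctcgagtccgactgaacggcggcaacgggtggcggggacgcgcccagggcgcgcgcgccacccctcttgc
Hoxd13, chr2:74667975-74668224, + strand: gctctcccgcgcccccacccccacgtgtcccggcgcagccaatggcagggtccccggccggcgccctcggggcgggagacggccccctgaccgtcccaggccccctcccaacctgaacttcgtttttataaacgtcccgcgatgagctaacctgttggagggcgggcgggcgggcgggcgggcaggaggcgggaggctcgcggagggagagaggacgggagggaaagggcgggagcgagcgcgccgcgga
The Hoxb1 window held a match that begins 162 bases before the start, and the Hoxa2 window held 1 on the opposite strand that begins 111 bases before it. The windows of Hoxa5 and Hoxd13 held none of these letters. RefSeq windows were matched for 19 of the 33 member genes. The motif occurred in 3 of their 21 windows, the other being of Hoxd11, and in 7.68% of all 32851 windows of the table. CpG dinucleotides numbered 7 in Hoxb1, 6 in Hoxa2, 28 in Hoxa5 and 31 in Hoxd13, with a median of 13 in member windows and of 6 in all windows.

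The tissues were compared across all probe sets above log2 5 on at least 2 arrays. Hoxa5 was the 1 Hox probe set that passed this filter, as against 13288 in all, or 29.5% of probe sets. Its log2 intensity was 8.96 ± 0.002 in endoderm and 8.13 ± 0.17 in mes/ectoderm (mean ± SD, n = 2). The difference was 0.84 ± 0.31 log2 units (SE), or 1.79-fold, and did not pass limma's test (adjusted p = 1). Limma called 0 of 13288 probe sets in either direction (0%), with 500 at an unadjusted p under 0.05. Without a filter limma called 0 of 45037 and 0 of the 48 Hox probe sets, of which Hoxa5 alone had an unadjusted p under 0.05. These fits held no term for the experiment. With that term and no filter, Hoxa5 and Hoxb7 had an unadjusted p under 0.05, and limma again called 0 of 45037. With 2 samples of each tissue, p-values measure only the spread between these samples, which may be technical. In such pooled tissue, fewer cells of a type and less RNA per cell cannot be told apart.

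Set side by side without a test, endoderm exceeded mes/ectoderm by 2-fold or more in both experiments for 0 of 48 Hox probe sets and fell as far below it for 0, against 1.28% and 0.373% of all probe sets. Hoxb1 came nearest, as its difference was below 2-fold in the first experiment. Without foregut endoderm 2 the count of higher members was 4, and without foregut endoderm 1 it was 1, where the lone endoderm array served both comparisons.

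Between the experiments, with tissue as a term, Hoxa5 differed by -0.12 ± 0.23 log2 units (SE, second minus first; limma's adjusted p = 0.758). Limma called 0 of 13288 probe sets here (0%), with 3996 at an unadjusted p under 0.05. Quantile normalization raised these calls to 878 and median centring to 423, of which 0 were Hox probe sets. Below the filter, Hoxb3, Hoxa2, Hoxd1 and Hoxa10 were lower in foregut endoderm 2 than in foregut endoderm 1, and Hoxb1 was higher.

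In a count chosen after the values were seen, 4 of 48 Hox probe sets were at least 2-fold above each other array on foregut endoderm 1 (8.33%, against 1.4% of all probe sets). They were those of Hoxa2, Hoxb3 (both probe sets) and Hoxa10. On foregut endoderm 2 it was 1 (Hoxb1, 2.08%, against 1.42%), and on mes/ectoderm 1 and 2 it was 0 (against 1.1% and 1.63%). Summed marker levels of other tissues differed between the arrays too. Summed intensity of 8 somite markers was 211 in foregut endoderm 1, 72.4 in foregut endoderm 2 and 44.8 and 59.7 in mes/ectoderm 1 and 2. In foregut endoderm 1, 1 of these markers was above log2 5, Foxc2 (6.92), which carried the largest part of the sum there. Tbx18 (4.64), Tcf15 (4.31), Meox2 (3.49) and Meox1 (3.29) were below that level but also highest on this array, while Ripply2 was flat. Pax1 ran the other way, at 3.90 in foregut endoderm 1 and 5.18 in foregut endoderm 2, where it carried the largest part of the sum. Pax1 was higher in endoderm than in mes/ectoderm in both experiments, by at least 1.62 and 2.89 log2 units. Uncx was at the floor on all arrays. Summed intensity of 10 endothelial and blood markers was 2874 and 259 in endoderm 1 and 2 and 479 and 2728 in mes/ectoderm 1 and 2, with 5, 2, 2 and 5 above log2 5. For 8 lateral plate markers it was 993 and 253 in endoderm and 307 and 618 in mes/ectoderm, with 2, 1, 1 and 2 above log2 5. That of 8 neural crest markers was 2713 and 846 in endoderm and 3272 and 2580 in mes/ectoderm, with 6, 4, 7 and 7 above log2 5. For 9 neural plate markers it was 1979 and 4532 in endoderm 1 and 2 and 6917 and 5806 in mes/ectoderm 1 and 2. Of these 9, 7 were at least 2-fold lower in endoderm in both experiments. The exceptions were Sox2 (10.57 and 11.71 in endoderm 1 and 2) and Otx2 (8.23 and 9.88). These were the brightest of the list on both endoderm arrays and carried most of the sums there. The part of all these markers in the Hox values was not tested.

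Among the segment regulators of the hindbrain, Egr2, Gbx2 and En2 are given in values chosen after they were seen. Egr2, the zinc finger factor of hindbrain segments next to that of Hoxb1, was at 6.62 in foregut endoderm 1 and at 2.63 to 2.65 on the other arrays. Gbx2, a homeobox factor of the anterior hindbrain, was at 4.25 in foregut endoderm 1, 5.52 in foregut endoderm 2, and 2.60 and 2.61 in mes/ectoderm 1 and 2. Gbx2 and Hoxb1 were thus both higher in foregut endoderm 2, and Egr2 was high on the array where Hoxb3 and Hoxa2 were. In the rest of the list, Fgf3 (2.63 and 3.43 in foregut endoderm 1 and 2) and Otx2 (8.23 and 9.88) also rose. Irx3 (10.36 and 10.02) and Epha4 (8.01 and 8.02) did so little or not at all. Pax8 was flat, and En1 left the floor on mes/ectoderm 1 only (4.91). A link to the Hox values was not tested. En2, of the midbrain and its border with the hindbrain, was at 7.97 in mes/ectoderm 1 and at 3.85 or below elsewhere. Of 12 such genes 9 had a probe set, 6 were above log2 5 on at least 1 array and 3 passed the filter. These were Irx3 (difference 1.49 ± 0.40, SE), Otx2 (-1.30 ± 0.79) and Epha4 (-0.36 ± 0.30), and none passed limma's test over all probe sets (adjusted p = 1).

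Several partners of Hox proteins lay far above log2 5. Of 9 cofactors of the Pbx, Meis and Pknox families 8 had a probe set, and 6 of these passed the filter. Meis2 was at 12.14 and 11.99 in endoderm 1 and 2 and at 10.70 and 10.77 in mes/ectoderm 1 and 2. Its difference was 1.33 ± 0.31 (SE; limma's adjusted p = 0.979). Pbx3 was at 9.68 and 9.28 in endoderm and at 10.17 and 10.57 outside it, a difference of -0.88 ± 0.37. Those of Pknox1 and Pknox2 were 0.64 ± 0.38 and -0.75 ± 0.46. Limma called 0 of these 6 in either direction, and their median difference was 0.41, against 0.10 over the 13288 probe sets past the filter.

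Cdx genes, ParaHox genes and homeobox neighbours of the Hox clusters lay at or near the floor. Cdx1, Cdx2 and Cdx4, caudal-type factors of the trunk and tail, and the ParaHox genes Gsx1 and Gsx2 were at the floor on all 4 arrays, and Pdx1 stayed below 2.6. Evx1 and Evx2, homeobox genes next to the 5′ ends of Hoxa and Hoxd, were at the floor as well. Of 11 markers of the primitive streak, tail bud and trunk, 7 were at the floor on every array, Tbx6 among them. Summed over the list, intensity was 315 and 465 in endoderm and 255 and 297 in mes/ectoderm. Without Cyp26a1 it was 103 and 108 in endoderm and 174 and 123 in mes/ectoderm, so this gene carried the higher sums in endoderm. Wnt3a in that list was above log2 5 on all arrays but moved by no more than 0.1 log2 units in height above the floor, so a value over log2 5 is not by itself a sign of transcript.

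**Figure D3:**
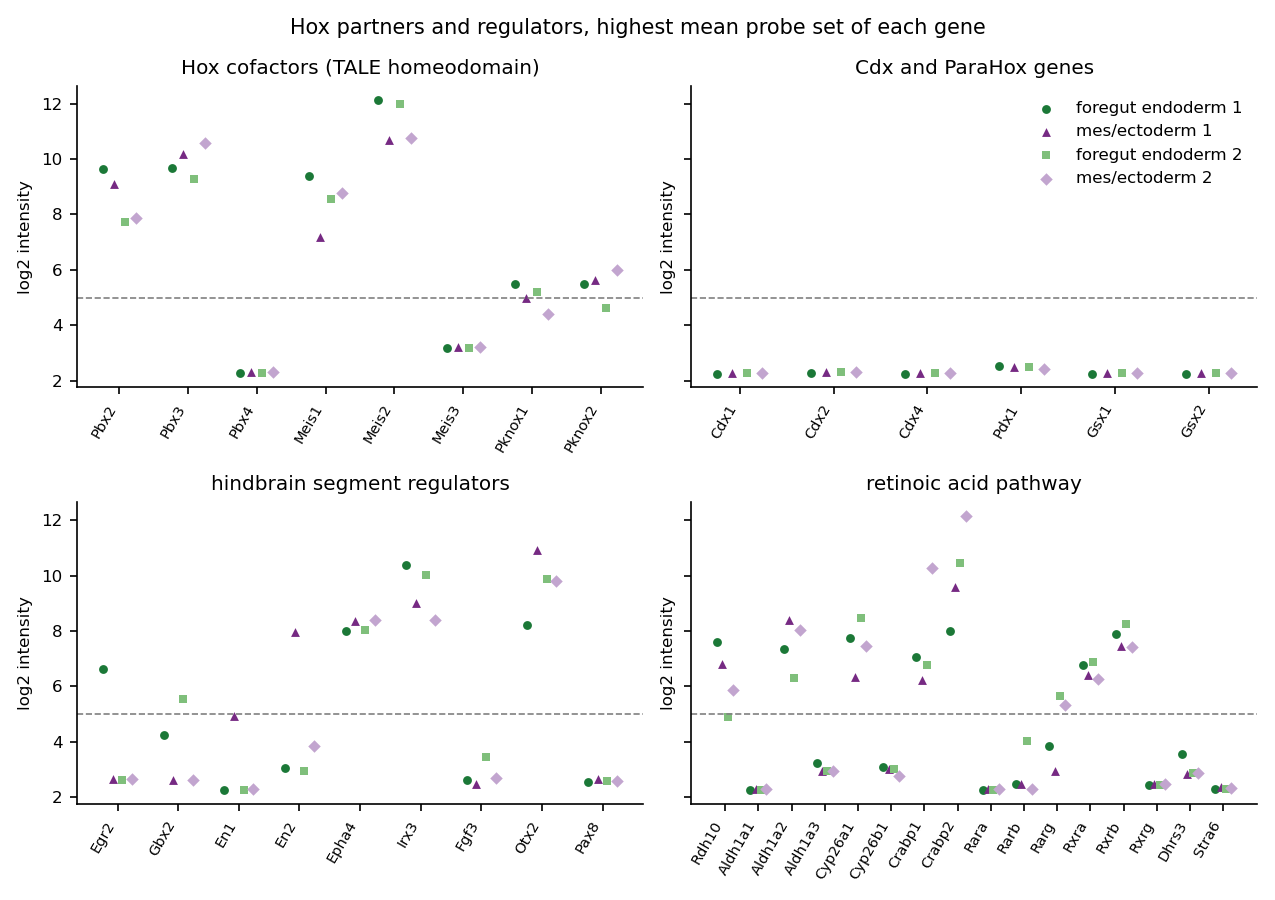
Log2 intensity (vertical axis) on each array for the brightest probe set of Hox cofactors, Cdx and ParaHox genes, hindbrain segment regulators and retinoic acid genes (panels), with 1 symbol per array and a dashed line at log2 5. Meis and Pbx genes reach up to 12.14 while all Cdx and ParaHox genes lie near the floor, and Egr2 stands out on foregut endoderm 1 only.

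Retinoic acid switches on 3′ Hox genes through receptors bound near them, and genes that make and break it down were present. Of 18 genes of this pathway 16 had a probe set, and 8 passed the filter. Aldh1a2, the enzyme that makes retinoic acid in the early embryo, was at 7.34 and 6.29 in endoderm 1 and 2 and at 8.39 and 8.03 in mes/ectoderm 1 and 2, a difference of -1.40 ± 0.51 (SE). Cyp26a1, which breaks retinoic acid down, was at 7.73 and 8.48 in endoderm and at 6.33 and 7.44 outside it. Its difference was 1.22 ± 0.58. The receptor genes Rxrb and Rxra differed by 0.64 ± 0.33 and 0.50 ± 0.31. Rarb, itself a target of retinoic acid, was at 4.03 in foregut endoderm 2 and at or below 2.5 on the other arrays. Limma called 0 of the 8 in either direction (adjusted p = 1 for the 4 with differences given here), with a median difference of 0.19.

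Polycomb and trithorax proteins keep Hox clusters shut or open. Of 20 of their genes 18 had a probe set, 14 were above log2 5 on at least 1 array and 13 passed the filter. Ezh2, the methyltransferase of Polycomb repressive complexes, is among them. The members with the smallest p were Jarid2 (difference 1.26 ± 0.60, SE), Cbx2 (0.59 ± 0.39), Kmt2b (0.70 ± 0.51) and Bmi1 (0.63 ± 0.51). Limma called 0 of the 13 in either direction, and their median difference was 0.10, as over the 13288 probe sets past the filter.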

How the data were processed

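The authors deposited an intensity for each probe set of Affymetrix mouse MOE430 arrays, on a scale that the values show to be linear. Per the series' design text they normalized with GC-RMA in the GenePattern software, and the submitters' processing notes name RMA. Its version and parameters are not given here by any source. RNA was amplified linearly in 2 rounds, per the labels' protocols. Here log2 was taken, 64 of 45101 probe sets were left out as controls, and all others kept their deposited normalization. Symbols came from GEO's platform annotation, and all 48 Hox probe sets matched RefSeq (GRCm38.p6) by gene identifier with the same symbol.

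Tests used limma 3.58.1 in R 4.3.3 (lmFit, eBayes, two-sided, Benjamini-Hochberg over all probe sets fitted, threshold 0.05). Differences were foregut endoderm minus mes/ectoderm, for probe sets above log2 5 on at least 2 arrays. The fits were also run on simulated data with the same set spread for every probe set. That run checks the code and not the power of the tests in these data. Same-numbered samples were dissected in the same way per the labels' protocols, and their deviations from the tissue means correlated at 0.56 across probe sets, so the numbers pair them. The main tissue fit ignored this pairing, and its SEs and p-values are those given unless a block is named. With the replicate number as a block, the SE was 0.23 rather than 0.31 for Hoxa5 and 0.25 rather than 0.58 for Cyp26a1. For Otx2 it was 0.84 rather than 0.79.

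Members and gene lists were chosen with earlier results of these data known. Hox probe sets above log2 5 on an array are named with all values, and lists are represented by each gene's brightest probe set, naming up to 4 members with the smallest p. Genes named outside this rule are said to be so or were chosen after their values were seen. Alternatives were other filters, normalizations, pseudocounts and thresholds, the replicate number as a block, an intensity trend and leaving out each array.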

Additional observations from a re-analysis of the deposited data

Results flagged for a closer look

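A Hoxb3 probe set (1456229_at) had differences of opposite sign in the 2 experiments. In height above each array's floor, endoderm minus mes/ectoderm was 4.13 within the first experiment and -0.30 within the second. In each experiment 1 of the arrays was at the floor (mes/ectoderm 1 and foregut endoderm 2), so both values are bounds in size, and the second rests on mes/ectoderm 2 at 0.34 above its floor. With 1 sample of each tissue per experiment this difference was not tested.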

How the results depend on the processing

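The tissue comparison called 0 probe sets under every alternative run, with 0 Hox probe sets among them. With the replicate block the count was 0 of 13288 by limma (lowest adjusted p = 0.351), and Hoxa5 had an adjusted p of 0.499, within 0.467 to 1 over its alternatives. Its difference lay between 0.66 (median centring) and 0.96 (without mes/ectoderm 1). Between experiments, 0 calls became 878 with quantile normalization and 423 with median centring; leaving out an array leaves no residual degree of freedom for that comparison, so it was not run. These scalings moved the median tissue difference of the 13288 probe sets past the filter from 0.10 to -0.02 and -0.08.

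At log2 4 the count of Hox probe sets above the threshold was 4 on foregut endoderm 1 and 5 on at least 1 array. On foregut endoderm 2 it was 1 at log2 6 and 1 at each array's median plus 3. With each gene's highest-mean probe set alone it was 1 on foregut endoderm 1, as Hoxb3 is then represented by 1427605_at. Without _s_at, _x_at and _a_at probe sets it was 1 on each endoderm array and 0 on each array of mes/ectoderm. Hox probe sets 2-fold higher in both experiments ran from 0 to 4 with an array left out, and those lower from 0 to 0. With the brightest probe set of each gene, the median of paralogues 1 to 4 was 2.84 on foregut endoderm 1 and 2.41 on foregut endoderm 2, and that of paralogues 5 to 8 was 2.49 on foregut endoderm 1. With median centring, medians on mes/ectoderm 1 were 2.48, 2.43 and 2.43 for paralogues 1 to 4, 5 to 8 and 9 to 13. Median centring shifts all probe sets of an array by the same amount, and the brightest probe set of a gene is picked for its level. These shifts of the medians are thus no result about Hox genes. Signal near the floor and 2 samples per tissue limit all values.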

Other observations

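Probe sets of Hox loci outside the rule were low as well. A probe set that the annotation shares between Hoxd4 and Hoxd3 (1421537_at) was at 3.69 in foregut endoderm 1 and at 2.29 to 2.30 on the other arrays. The other probe set of this pair and the 1 shared by Hoxb8 and Hoxb7 were at the floor on all arrays. Of 5 antisense probe sets, that of Hoxb5os was at 3.34 and 2.77 in endoderm 1 and 2 and at 2.84 and 2.53 in mes/ectoderm 1 and 2, and the others, of Hoxa11os and Hoxd3os1, lay at or below 2.39.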
